A study of Mus musculus with 20 samples.

Results

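Klotho and the FGF receptors were described here through Kl, Fgfr1 and Fgfr4, taking every probe set that the platform annotation maps to 1 of these genes alone. The rule found 3 probe sets, 1 per gene (3 genes of 8251 named on the array): 100956_at for Kl, 97509_f_at for Fgfr1 and 92937_at for Fgfr4. All 3 passed the filter on dim probe sets. Kidney RNA was measured on 20 arrays, each hybridised with a pool from 3 C57BL/6J mice, to compare the response to a low phosphate diet in Hyp and normal mice. The 4 groups, with 5 arrays in each, were Hyp mice given the low phosphate diet, Hyp mice given the control diet, normal mice given the low phosphate diet, and normal mice given the control diet. In each group 3 arrays came from mice fed for 5 days (2 from males, 1 from females) and 2 from mice fed for 3 days (1 of each sex). The Hyp mutation deletes part of Phex, and the strain models human X-linked hypophosphatemia. The ages of the mice are not given in the sources used here, and a pooled array shows no difference between single mice.

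Fibroblast growth factor 23 (FGF23) is a hormone from bone that lowers phosphate reabsorption and active vitamin D. It acts on the kidney through an FGF receptor bound to alpha-klotho, the membrane protein that Kl encodes, and signals on to the ERK kinases. Kl is known for high expression in the distal tubule and lower expression in the proximal tubule. Fgfr1 encodes the receptor most often paired with klotho in the kidney, and Fgfr4 encodes a receptor found in the proximal tubule and liver. Hyp mice are known for high circulating FGF23.

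The reference used here held no promoter of Fgfr1. The promoters of Kl and Fgfr4, both called lower in Hyp kidney, are shown as sequence context. They are the 250 bases before the annotated start in RefSeq (GRCm38.p6), read 5′ to 3′ on the plus strand, at chr5:150952357-150952606 for Kl and chr13:55152568-55152817 for Fgfr4. Capitals mark the GC box GGGCGG on either strand.
Kl: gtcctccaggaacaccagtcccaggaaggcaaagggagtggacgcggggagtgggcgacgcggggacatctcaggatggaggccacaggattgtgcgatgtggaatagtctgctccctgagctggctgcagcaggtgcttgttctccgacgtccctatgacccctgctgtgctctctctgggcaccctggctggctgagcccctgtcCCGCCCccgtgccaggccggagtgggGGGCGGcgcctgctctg
Fgfr4: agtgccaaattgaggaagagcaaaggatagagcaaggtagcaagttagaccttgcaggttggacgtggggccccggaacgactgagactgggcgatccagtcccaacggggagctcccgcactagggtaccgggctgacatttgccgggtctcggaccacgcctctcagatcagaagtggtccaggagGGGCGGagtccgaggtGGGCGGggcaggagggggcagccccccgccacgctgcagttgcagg
Both windows were rich in G and C, at 66.8% for Kl and 64% for Fgfr4, against a median of 52.4% over 32851 promoters of the same length. Each held 2 GC boxes, a motif found in 32.7% of those promoters. Neither held CCAAT (33.9% of promoters), TATAAA (12.4%), AGGTCA (14%), CCACCC (28.1%) or the palindrome TGACGTCA (1.55%) on either strand, and none of these motifs contains another. These letter matches describe the windows and show no binding.

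The array sets and their RNA quality bear on the values below. Arrays are named by the number in their title, and the numbers fall into 6 runs, each of 1 sex and 1 duration: 01 to 04, 05 to 08, 09 and 10, 11 to 14, 15 to 18, and 19 and 20. Arrays 05 to 08 (females, 5 days) and 09 and 10 (Hyp males, 5 days) had lower median rank correlations with the other arrays (0.895 to 0.947) than the remaining 14 (0.958 to 0.969). The actin 3′ to 5′ ratio, a sign of RNA quality that rises when RNA is degraded, was 2.17 to 2.61 on arrays 06, 07 and 08 and 1.22 to 1.98 on the others. Phex was dim on every array (11.5 to 106.3) and its probe set did not pass the filter, so it does not check the genotype labels.

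Kl was lower in Hyp than in normal kidney on both diets. On low phosphate diet its signal intensity on arrays 04, 08, 10, 14 and 18 from Hyp mice was 4477.4, 4620.2, 5958.2, 4460.2 and 4708.2, against 6813.8, 6836.4, 7082.9, 6602.1 and 7824 on arrays 02, 06, 12, 16 and 20 from normal mice. On control diet it was 3919.4, 4648.3, 4795, 4938.5 and 4724.1 on arrays 03, 07, 09, 13 and 17 from Hyp mice, against 5499.8, 5507.9, 6342, 6152.4 and 7068.8 on arrays 01, 05, 11, 15 and 19 from normal mice. Within either diet every Hyp array was below every normal array, a separation that 0.828% of the 8695 tested probe sets showed on low phosphate and 0.771% on control diet. Across diets, 1 Hyp array (array 10) exceeded 2 normal arrays (01 and 05). From the top, the groups ran from normal on low phosphate (7032 ± 474, SD, n = 5) and normal on control diet (6114 ± 654) to Hyp on low phosphate (4845 ± 631) and Hyp on control diet (4605 ± 398), and each neighbour overlapped the next.

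**Figure D1:**
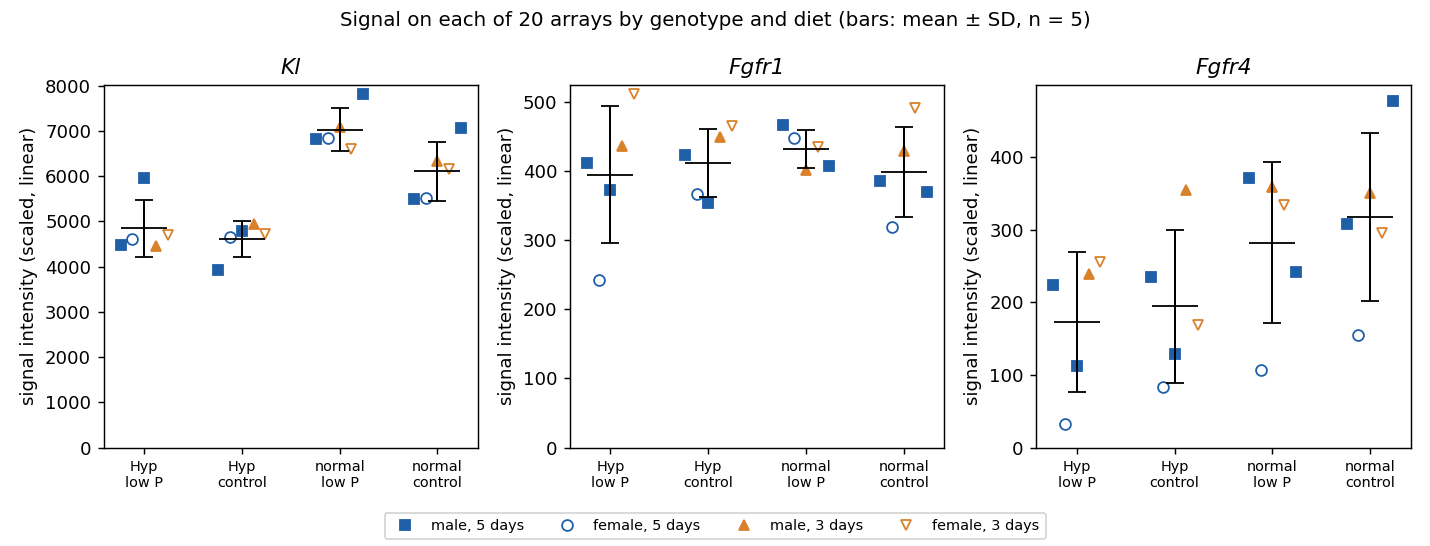
Signal intensity (scaled by the authors, linear scale) of Kl, Fgfr1 and Fgfr4 on each of the 20 arrays, by group, with mean and SD (n = 5); marker shape and colour give sex and days on diet. All Kl values of Hyp mice lie between 3919.4 and 5958.2 and those of normal mice between 5499.8 and 7824, while the Fgfr4 values of 5-day females lie lowest in all 4 groups.

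Averaged over diets, Kl fell by 27.9% in Hyp kidney (log2 difference -0.47, SE 0.08; fold 0.721, 95% interval 0.644 to 0.807; limma adjusted p = 0.00354), the mean signal being 4725 ± 513 over 10 Hyp arrays and 6573 ± 724 over 10 normal arrays (SD). In this comparison 1.28% of tested probe sets were called (adjusted p under 0.05), and Kl ranked 26th by p. The call held with each array left out in turn, with log2 differences of -0.51 to -0.44. It also held under 13 of 17 other alternatives, and was lost in the 4 that keep only males, only females, only 5-day or only 3-day arrays, where the difference was -0.51 to -0.42. Taking the diets apart, the difference on low phosphate diet was -0.54 (SE 0.11, adjusted p = 0.0366), a comparison in which 0.357% of probe sets were called. This call was fragile: it was lost in 13 of 20 fits that leave out 1 array (adjusted p up to 0.126) and under 10 of 18 other alternatives, although the difference stayed between -0.64 and -0.47. On control diet the difference was -0.40 (SE 0.11, adjusted p = 0.229), which did not pass, in a comparison that called 0.253% of probe sets. Control-diet Kl was called in none of the 38 alternatives, its lowest adjusted p being 0.0641.

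Within the 4 array sets that hold every group, Kl was below normal in all 8 comparisons of a Hyp array with its normal counterpart. On low phosphate diet the log2 difference was -0.60 in arrays 01 to 04, -0.56 in 05 to 08, -0.66 in 11 to 14 and -0.48 in 15 to 18. On control diet it was -0.48, -0.24, -0.36 and -0.38 in the same sets. Both sexes and both durations thus showed the lower Kl signal, each pair resting on 1 array a group.

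**Figure D2:**
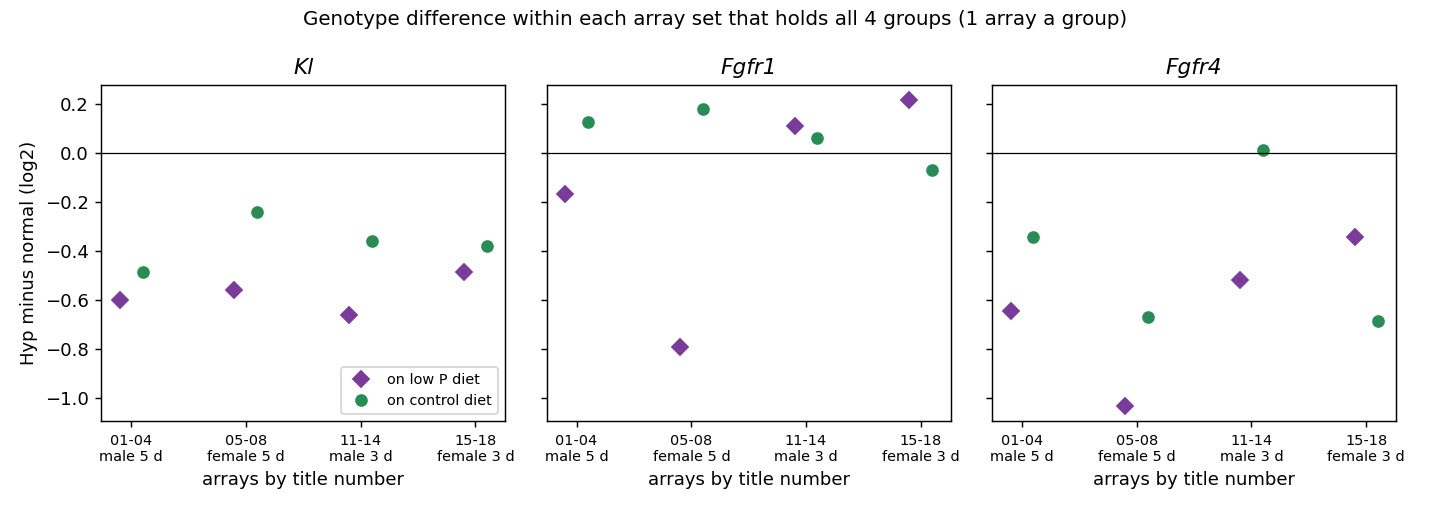
Log2 difference of Hyp minus normal within each of the 4 array sets that hold all 4 groups (1 array a group), on low phosphate diet (diamonds) and control diet (circles). All 8 Kl points lie below 0 (-0.66 to -0.24), as do 7 of 8 for Fgfr4, while those of Fgfr1 lie on both sides.

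No diet response of Kl passed the test. In Hyp mice low phosphate against control diet gave a log2 difference of 0.07 (95% interval -0.16 to 0.30, adjusted p = 0.998), where 0.15% of probe sets were called. In normal mice it gave 0.20 (-0.03 to 0.43, adjusted p = 0.638), where 0.184% were called, and low phosphate was higher in all 5 array sets with normal mice (0.10 to 0.31). The interaction, the Hyp response minus the normal response, was -0.14 (-0.46 to 0.19, adjusted p = 1), where 0.046% were called. Averaged over genotypes the diet difference was 0.14 (-0.03 to 0.30, adjusted p = 0.596), where 0.472% were called. The interval in Hyp mice spans 0 and does not show that the diet left Kl unchanged.

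Time on diet made no difference to Kl that passed the test. Its signal averaged 5664 ± 1236 after 5 days (n = 12) and 5626 ± 1025 after 3 days (n = 8), a fitted difference of -0.01 (95% interval -0.18 to 0.16, adjusted p = 0.90). The genotype difference was -0.47 (SE 0.11) at 5 days and -0.47 (SE 0.13) at 3 days, with a difference between durations of -0.0020 (-0.36 to 0.36, adjusted p = 0.998). Taken alone, neither duration passed (adjusted p = 0.0673 at 5 days and 0.444 at 3 days), in comparisons that called 0.276% and 0.104% of probe sets. After 5 days Kl was called under 3 alternatives and with array 01 left out, and after 3 days with array weights. Diet differences of Kl were 0.21 (-0.02 to 0.44) at 5 days, where 0.104% of probe sets were called, and 0.03 (-0.25 to 0.30) at 3 days, where 0.046% were. Male minus female was 0.06 (-0.11 to 0.23, adjusted p = 0.661).

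**Figure D3:**
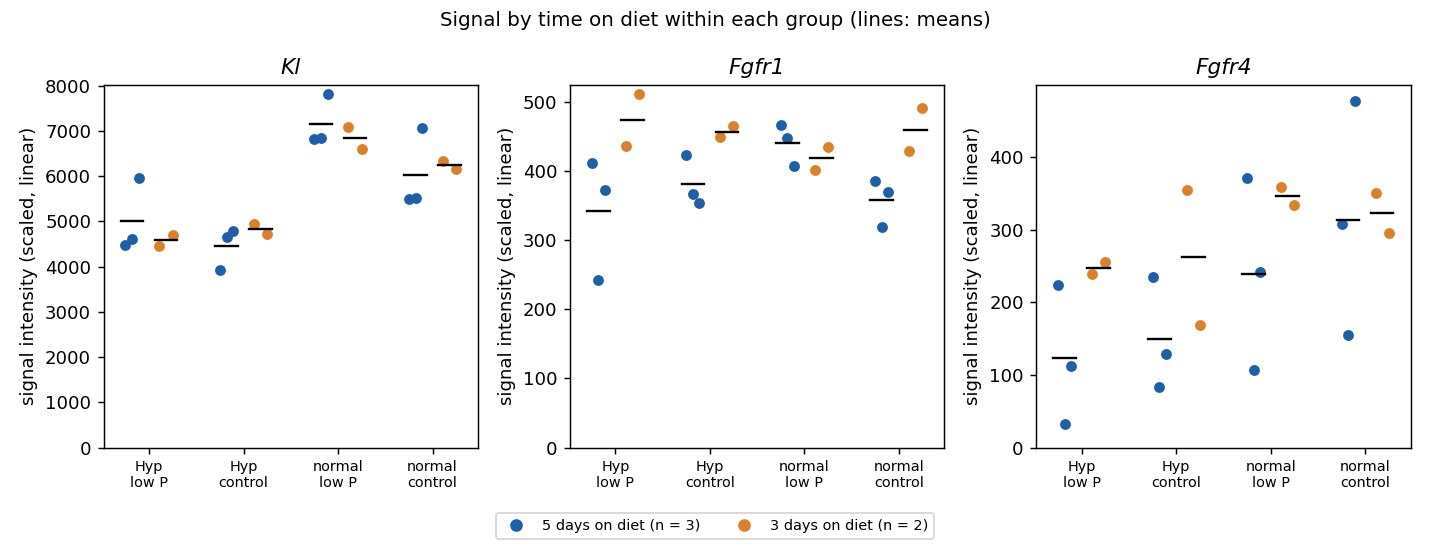
Signal intensity (linear scale) of the 3 genes by group, with 5 days on diet (blue, n = 3) left of 3 days (orange, n = 2) and lines at the means. The gap between Hyp and normal Kl is alike at both durations, and Fgfr4 spreads most after 5 days.

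Fgfr4 was also called lower in Hyp kidney when diets were averaged, with far more scatter. On low phosphate diet arrays 04, 08, 10, 14 and 18 from Hyp mice read 223.8, 32.6, 112.9, 239 and 255.7, against 371.2, 106.3, 358.6, 334.2 and 242 on arrays 02, 06, 12, 16 and 20 from normal mice. On control diet arrays 03, 07, 09, 13 and 17 from Hyp mice read 235.6, 83, 129.4, 354.9 and 169.6, against 308.6, 154.6, 351.1, 295.5 and 477.7 on arrays 01, 05, 11, 15 and 19 from normal mice. Groups overlapped on both diets, and the lowest array of each group was its 5-day female array. The value on array 08 lies below the offset of 37.7 (the 20th percentile of all intensities) that was added before taking logs, so it is close to background.

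The Fgfr4 means were 173 ± 96.3 in Hyp on low phosphate, 194.5 ± 106 in Hyp on control diet, 282 ± 111 in normal on low phosphate and 317.5 ± 116 in normal on control diet (SD, n = 5 each). Averaged over diets, Fgfr4 fell by 37.3% in Hyp kidney (log2 difference -0.67, SE 0.15; 95% interval -0.998 to -0.350; adjusted p = 0.0369), so 2 of the 3 genes were called in this comparison, which called 1.28% of probe sets. The call was lost in 12 of 20 fits that leave out 1 array and under 11 of 17 other alternatives. Among these, a fixed block for the array set gave -0.53 (adjusted p = 0.126), leaving out arrays 05 to 08 gave -0.63 (adjusted p = 0.15), and leaving out arrays 05 to 10, an alternative chosen after their low values were seen, gave -0.43 (adjusted p = 0.332). The direction held under all 37 alternatives. Neither diet alone passed (-0.69, SE 0.22, adjusted p = 0.304 on low phosphate; -0.66, SE 0.22, adjusted p = 0.418 on control diet).

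Within array sets the Fgfr4 genotype difference was -0.64, -1.03, -0.52 and -0.34 on low phosphate diet in arrays 01 to 04, 05 to 08, 11 to 14 and 15 to 18. It was -0.34, -0.67, 0.01 and -0.68 on control diet in the same sets. At 5 days the fitted difference was -0.87 (SE 0.19, adjusted p = 0.0673), which passed with array 01 or array 04 left out, and at 3 days -0.38 (SE 0.24, adjusted p = 1). Their difference, -0.49 (95% interval -1.14 to 0.17, adjusted p = 0.923), did not pass. No diet difference of Fgfr4 passed, the fitted values being -0.20 (-0.66 to 0.26) in Hyp mice and -0.17 (-0.63 to 0.28) in normal mice, with an interaction of -0.02 (-0.67 to 0.62). Averaged over genotypes the Fgfr4 diet difference was -0.34 (-0.75 to 0.07) at 5 days and 0.05 (-0.46 to 0.55) at 3 days.

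Fgfr4 differed between durations and sexes, comparisons in which a large share of the array moved. It averaged 206 ± 130 after 5 days (n = 12) and 295 ± 68.4 after 3 days (n = 8). The fitted log2 difference, which weights the sexes equally, was -0.81 (SE 0.16, adjusted p = 0.00113). Fgfr4 averaged 284 ± 106 in males (n = 12) and 179 ± 107 in females (n = 8). The fitted difference, which weights the durations equally, was 0.73 (SE 0.16, adjusted p = 0.00611). For days 40.9% of tested probe sets were called and for sex 16.6%, so these calls do not set Fgfr4 apart. Within sets the Fgfr4 mean was 94.1 in arrays 05 to 08 and 121 in 09 and 10, against 284.8 in 01 to 04, 326 in 11 to 14, 264 in 15 to 18 and 360 in 19 and 20. Sex and duration are crossed, but females at each duration and males at 3 days fill 1 set each, so for these arrays the set cannot be told apart from sex and duration. Of the 3 sets of 5-day males, arrays 09 and 10 hold Hyp mice alone and 19 and 20 normal mice alone. In males alone the days difference was -0.37 (adjusted p = 0.425), in females alone -1.25 (adjusted p = 0.0101). Among 3-day arrays alone the sex difference was 0.29 (adjusted p = 0.521), and among 5-day arrays alone 1.17 (adjusted p = 0.00387). With array set as a random block, days still passed (-0.83, adjusted p = 0.0341) and sex did not (0.71, adjusted p = 0.163). That block used 1 correlation (0.303) for all probe sets, and each set holds 1 duration. It therefore cannot separate duration from set for Fgfr4.

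**Figure D4:**
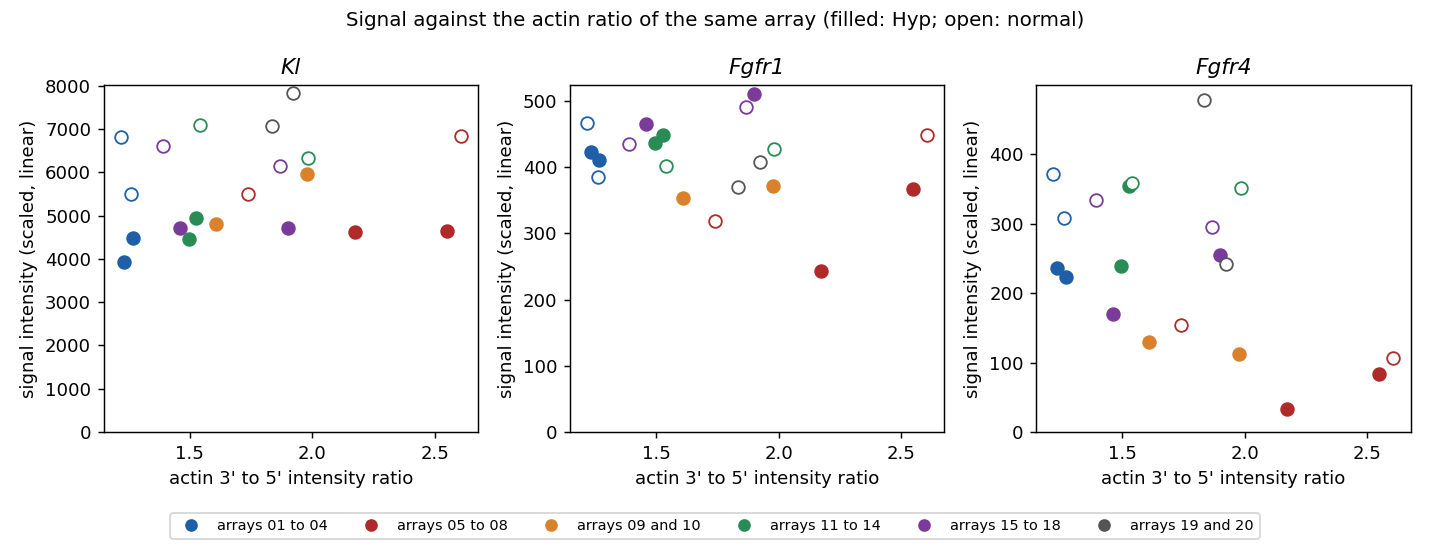
Signal intensity (linear scale) of the 3 genes against the actin 3′ to 5′ ratio of the same array, coloured by array set, filled for Hyp and open for normal. The 3 arrays with the highest ratios, 2.17 to 2.61 (06, 07 and 08), read 106.3, 83 and 32.6 for Fgfr4, while Kl on the same arrays (6836.4, 4648.3 and 4620.2) lies within the range of the other arrays.

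With the log2 actin ratio added as a term, an alternative chosen after seeing the data, the genotype difference was -0.47 for Kl (adjusted p = 0.000511) and -0.68 for Fgfr4 (adjusted p = 0.0303). The part of RNA quality in the Fgfr4 difference between durations was not tested beyond this term, with which it was -0.74 (adjusted p = 0.0029). The Gapdh ratio, which also set the Hyp arrays 09 and 10 apart, was not used as a term. Its part in the Fgfr4 genotype difference was not tested.

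Fgfr1 showed no genotype or diet difference that passed the test. Its probe set carries the suffix f, which marks probes that can match related sequences, so its signal may include others. On low phosphate diet it read 411.3, 242.8, 372.1, 436 and 510.7 on the Hyp arrays 04, 08, 10, 14 and 18, against 466.2, 448, 401.7, 434.5 and 407.5 on the normal arrays 02, 06, 12, 16 and 20. On control diet it read 423.2, 366.9, 353.5, 448.3 and 465 on the Hyp arrays 03, 07, 09, 13 and 17, against 384.6, 319, 428.1, 490.1 and 369.3 on the normal arrays 01, 05, 11, 15 and 19. Groups overlapped throughout, and the lowest value of all stood on array 08.

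The Fgfr1 genotype difference averaged over diets was -0.05 (95% interval -0.23 to 0.13, adjusted p = 0.809). It was -0.15 (-0.40 to 0.10) on low phosphate and 0.05 (-0.20 to 0.30) on control diet. The diet difference was -0.08 (-0.34 to 0.17) in Hyp mice and 0.12 (-0.14 to 0.37) in normal mice, and the interaction was -0.20 (-0.56 to 0.16). After 5 days Fgfr1 averaged 380 ± 59.8 (n = 12) and after 3 days 452 ± 35.3 (n = 8). The fitted difference was -0.28 (SE 0.09, adjusted p = 0.0203), among the 40.9% of probe sets called for days. That call was lost with array 08 or array 18 left out (adjusted p up to 0.0565), in males alone (-0.10, adjusted p = 0.63), and with array set as a random block (-0.28, adjusted p = 0.173). No probe set of the array (0%) was called by limma for a genotype difference or a diet response that differed between durations, in any alternative, with 425 and 275 at an unadjusted p under 0.05.

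**Figure D5:**
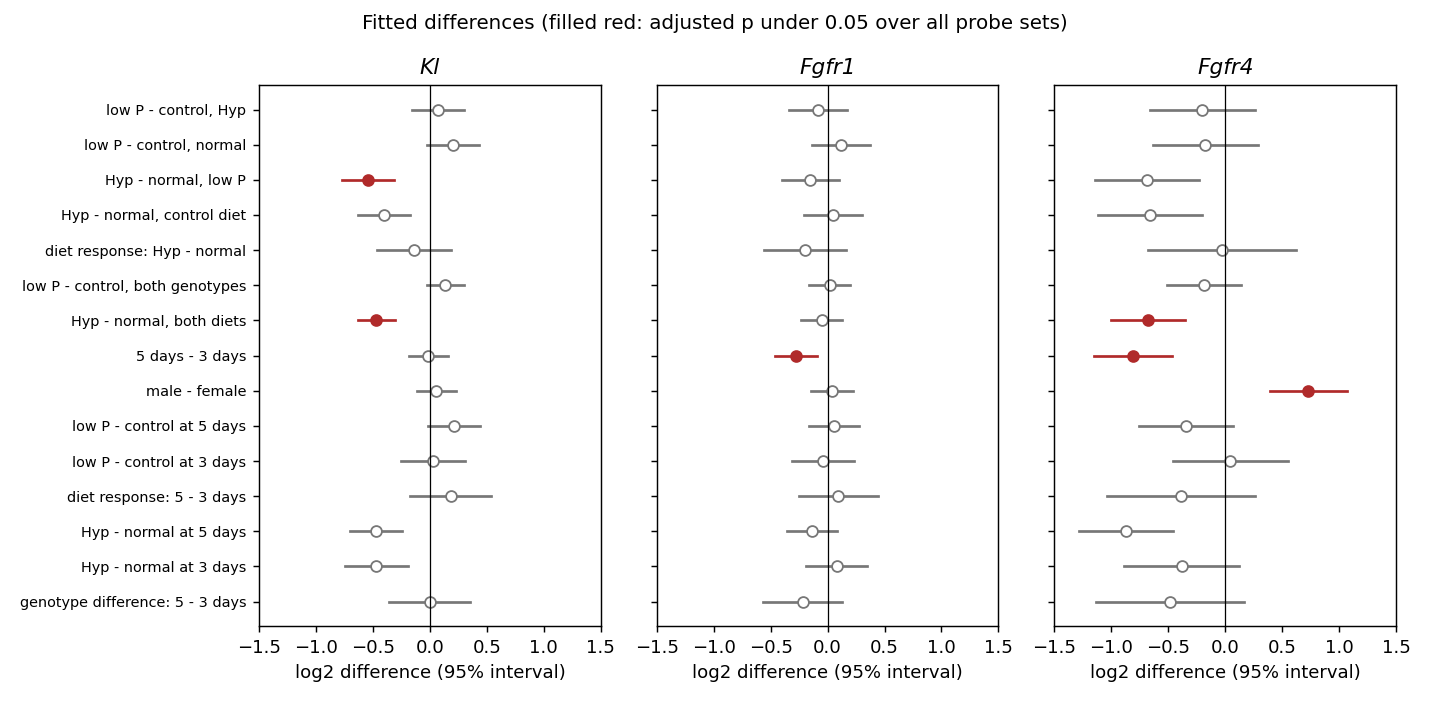
Fitted log2 differences with 95% intervals for the 3 genes in 15 comparisons, filled red where the adjusted p over all tested probe sets is under 0.05. Kl and Fgfr4 lie left of 0 in every Hyp minus normal row (-0.87 to -0.38), and the diet rows of all 3 genes cross 0.

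The other receptors and partners were measured less completely. Fgfr2 averaged 881 ± 89.9 in Hyp on low phosphate, 873 ± 14.8 in Hyp on control diet, 905 ± 147 in normal on low phosphate and 803 ± 124 in normal on control diet, with a genotype difference averaged over diets of 0.05 (SE 0.07, adjusted p = 0.776). Fgfr3 averaged 255 ± 89.6, 256.5 ± 54.2, 235 ± 40.4 and 204.5 ± 114 in the same order, with a difference of 0.24 (SE 0.18, adjusted p = 0.553). Fgf1, a ligand of all FGF receptors, had a difference of 0.19 (SE 0.10, adjusted p = 0.40). Fgfrl1, Klb, Fgf23, Spry1 and Trpv5 were looked up, but no probe set is mapped to any of them alone, so they were not tested. Of the 5 tested receptors and klotho co-receptors out of 8 listed, only Kl and Fgfr4 were called for genotype averaged over diets (median of the list -0.05, of all tested probe sets 0.02).

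Downstream of the receptors, genes of FGF and ERK feedback were called in both directions in the same comparison. Of 11 tested feedback and early target genes, 2 rose and 1 fell (median 0.13), beside 1.28% of all tested probe sets called. Dusp6, a phosphatase that removes the activating phosphates of ERK and is itself induced by ERK, rose by 0.78 on the log2 scale (SE 0.10, adjusted p = 0.000431), with means of 1022.5 ± 384 in Hyp and 560 ± 117 in normal mice on low phosphate diet and 1258 ± 245 in Hyp and 704 ± 104 in normal mice on control diet. It passed on each diet (0.77, adjusted p = 0.0223 on low phosphate; 0.80, adjusted p = 0.0248 on control) and at each duration (0.67 at 5 days and 0.96 at 3 days). Ier3, an early response gene, rose by 0.58 (SE 0.10, adjusted p = 0.00413), and also passed on control diet (0.87) and at 3 days (0.82). Ccnd1, the gene of cyclin D1, fell by 0.43 (SE 0.07, adjusted p = 0.00553). Egr1, another early gene, did not pass (0.07, SE 0.14, adjusted p = 0.852).

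Between receptor and nucleus, 0 of 15 tested adaptors and kinases were called for genotype averaged over diets (median -0.01), beside 1.28% of all tested probe sets. None of 13 heparan sulfate genes (median -0.04), 4 FGF ligands (median 0.15), 3 proteases of klotho and FGF23 (median -0.02) or 21 other receptor tyrosine kinases (median 0.06) was called either. At this number of arrays a p that misses the threshold does not show that these genes were alike.

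Among 10 tested kidney genes that klotho or FGF23 act on, 3 rose and 3 fell in Hyp kidney averaged over diets, beside 1.28% of all tested probe sets called. Cyp24a1, which inactivates vitamin D, rose by 1.86 on the log2 scale (SE 0.23, adjusted p = 0.00028). Cyp27b1, which makes active vitamin D, fell by 1.09 (SE 0.17, adjusted p = 0.00262). S100g and Calb1, the calcium-binding calbindins of the distal nephron, fell by 1.19 (SE 0.11) and 0.71 (SE 0.07). These averages differ by diet. On low phosphate diet Cyp27b1 (-2.10), S100g (-2.44), Calb1 (-1.28) and Cyp24a1 (2.25) were called, where 0.357% of probe sets were. On control diet none of the 10 was called, where 0.253% of probe sets were. Their differences there ran from -0.26 to 1.46, with Cyp27b1 at -0.09 and Cyp24a1 at 1.46. Slc12a3, the thiazide-sensitive sodium chloride transporter, and Kcnj1, a potassium channel, rose by 0.33 each (adjusted p = 0.0345 and 0.0238). Slc34a1, the main phosphate transporter of the proximal tubule, had a difference of -0.33 (SE 0.08) that missed the threshold (adjusted p = 0.0543). Between durations 4 of these 10 genes were called, near the 40.9% of all tested probe sets: Cyp24a1 (-0.98), S100g (-0.66), Slc12a3 (-0.26) and Slc34a1 (-0.23) were lower at 5 days than at 3 days. In the interaction Cyp27b1 (-2.01), Calb1 (-1.13) and S100g (-2.50) were called, and no member of the FGF receptor list.

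Of 10 tested proximal tubule markers (13 listed), 2 fell in Hyp kidney and 8 did not pass, in a comparison that called 1.28% of probe sets. All 10 differences were negative (median -0.16, range -0.41 to -0.05, against 0.02 over all tested probe sets), and Slc2a2 (-0.34, adjusted p = 0.0122), a glucose transporter, and Slc4a4 (-0.41, adjusted p = 0.0247), a bicarbonate transporter, were called. Over both diets the summed intensity of the 10 markers was 47227 to 56222 in Hyp and 53573 to 66496 in normal mice, ranges that overlap. On low phosphate diet alone the ranges did not overlap (47372.8 to 54553.7 in Hyp, 58168.5 to 66495.7 in normal mice). On control diet they did (47227.1 to 56222.3 in Hyp, 53572.9 to 59216.7 in normal mice). The Kl difference was -0.47 (95% interval -0.63 to -0.31) and the Fgfr4 difference -0.67 (-0.998 to -0.350). Both intervals include the lowest of these marker differences, -0.41. Neither includes their median, -0.16, and no test compared them. For the distal convoluted and connecting tubule 1 of 7 tested markers rose (Slc12a3) and 2 fell (Calb1 and S100g), with a median of -0.03 and summed intensities of 32576 to 51030 in Hyp and 37097 to 45726 in normal mice. In whole kidney, fewer cells of a type and less RNA per cell cannot be told apart, and the part of tubule composition in the Kl and Fgfr4 differences was not tested.

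Other marker lists were called at most once for genotype averaged over diets, beside 1.28% of all tested probe sets called. In the thick ascending limb Kcnj1 rose (1 of 5 tested). In the collecting duct and red blood cell lists Slc4a1, which is in both, rose by 0.35 (adjusted p = 0.0426; 1 of 4 tested in each). Red blood cell markers summed to 7592 to 15771 in Hyp and 7589 to 12500 in normal mice. None of 4 podocyte, 8 endothelial, 10 fibroblast and smooth muscle, 7 macrophage and lymphocyte or 6 adipocyte markers was called.

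Between durations many pathway genes were called alongside Fgfr4 and Fgfr1. Of 15 adaptors and kinases, Pik3ca (0.73) rose and Akt1 (-0.48), Akt2 (-0.88), Araf (-1.05), Grb2 (-0.81), Shc1 (-0.41) and Sos2 (-0.39) fell at 5 days relative to 3 days. Of 11 feedback genes, Spry4 (0.61) and Etv4 (0.57) rose and Dusp6 (-0.52), Ier2 (-0.35), Ier3 (-0.30) and Spred2 (-0.36) fell. Among 13 heparan sulfate genes Glce (0.33) rose and Ext2 (-0.69), Gpc1 (-0.52), Gpc3 (-0.43) and Sdc4 (-0.54) fell. The shares called, 7 of 15, 6 of 11 and 5 of 13, stand beside 40.9% of all tested probe sets. Adam10 (-0.34) and Furin (-0.36) fell and Galnt3 (0.31) and Fgf4 (0.68) rose. Of 21 other receptor tyrosine kinases 7 rose, namely Ephb6 (1.43), Flt3 (0.84), Ddr2 (0.63), Mst1r (0.55), Epha4 (0.55), Pdgfra (0.55) and Igf1r (0.46), and Csf1r (-0.50) and Tie1 (-0.33) fell. Adipocyte markers moved with duration: Adipoq (1.58), Car3 (1.92) and Ucp1 (1.65) rose, 3 of 6 tested, and the part of adherent fat in the duration differences was not tested.

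For sex, where 16.6% of all tested probe sets were called, 2 of 15 adaptors and kinases, 1 of 11 feedback genes, 2 of 13 heparan sulfate genes, 1 of 10 kidney target genes and 3 of 21 other receptor tyrosine kinases were called. In males Akt2 (0.67), Grb2 (0.75) and Gpc4 (0.30) were higher, as Fgfr4 was, and Spry4 (-0.40), Sdc4 (-1.03) and Sgk1 (-0.59) were lower. Of 21 other receptor tyrosine kinases Csf1r (0.39) and Egfr (0.31) were higher in males and Ephb6 (-1.20) lower.

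The 5 genes most like each member were ranked by Pearson's r of log2 intensity over the 20 arrays after each array set's mean was subtracted, as a description without a test. For Kl these were Acsm2 (r = 0.956; 0.63 before subtraction), Dnase1 (0.908; 0.873), Mfsd1 (0.88; 0.54), Fabp3 (0.878; 0.495) and Car14 (0.867; 0.739). Dnase1, Fabp3 and Car14 were also called lower in Hyp kidney averaged over diets (-2.01, -0.79 and -0.65), and Acsm2 (-0.42, adjusted p = 0.14) was not called. For Fgfr4 they were Slc17a1 (0.923; 0.597), Ahcy (0.87; 0.738), Adh5 (0.853; 0.788), Nfs1 (0.852; 0.562) and Tst (0.851; 0.96), of which Tst was called lower in Hyp (-0.50, adjusted p = 0.0147). For Fgfr1 they were Ctnnal1 (0.903; 0.506), Ovgp1 (0.899; 0.0532), Trmt1 (0.871; 0.882), Las1l (0.865; 0.817) and Ints8 (0.857; 0.339), with none called. By rank after subtraction these genes gave rho of 0.489 to 0.780, against 0.786 to 0.971 for the genes listed for Kl and Fgfr4. Ctnnal1, Ovgp1 and Ints8 were also dim, with mean intensities of 96.9, 151 and 152. All of these values share arrays, groups and RNA quality.

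Between the members themselves 3 correlations over the 20 arrays were computed. Kl and Fgfr4 gave r = 0.39 (permutation p = 0.0861, adjusted 0.129) and rho = 0.49 (permutation p = 0.0304, adjusted 0.0912). Kl and Fgfr1 gave r = 0.14 (permutation p = 0.582, adjusted 0.582) and rho = 0.05 (permutation p = 0.833). Fgfr1 and Fgfr4 gave r = 0.62 (permutation p = 0.00513, adjusted 0.0154) and rho = 0.40 (permutation p = 0.0794). These permutations shuffled all 20 arrays without regard to group or array set. With set means subtracted and shuffling within sets, Fgfr1 and Fgfr4 gave r = 0.32 (permutation p = 0.47). In the same way Kl and Fgfr4 gave 0.55 (permutation p = 0.0177, adjusted 0.0531) and Kl and Fgfr1 0.26 (permutation p = 0.361). Leaving out the 2 arrays farthest from the median of the first gene, r was 0.47 for Kl and Fgfr4, 0.19 for Kl and Fgfr1, and 0.28 (adjusted p = 0.387) for Fgfr1 and Fgfr4. The relation of Fgfr1 with Fgfr4 therefore rests on those 2 arrays, 05 and 08. Within 5-day arrays its r was 0.62 and within 3-day arrays -0.46, within males 0.44 and within females 0.79, and within Hyp mice 0.88 against 0.13 in normal mice. The r of Kl and Fgfr4 was -0.21 within Hyp mice and 0.19 within normal mice, so the pooled value of that pair does not hold within genotypes.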

How the data were processed

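Deposited values were linear signal intensities, 1 for each probe set of each array. The authors' scaling brings the 2% trimmed mean of all arrays to 500.254 to 500.309, as computed from the values. The software used and the genome build are not given in the sources used here, and 0 columns were left unused. The values carry no depth. Precision is limited by how many arrays there are. A p-value reflects how pools of 3 mice and their arrays differ, which 1 array a pool cannot tell apart. It does not reflect how single mice differ.

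Of 12488 probe sets, 66 controls were left out, 37.7 was added before log2, and those with a mean under the 30th percentile (79.4) were dropped, leaving 8695. limma 3.58.1 in R 4.3.3 fitted group plus 4 strata of sex and days (13 residual degrees of freedom), or group by days with sex within days (10). Two-sided p-values were adjusted by Benjamini-Hochberg over all tested probe sets in each of 15 comparisons, with a threshold of 0.05. Permutation tests of correlations drew 100000 resamples, or 10000 where arrays were shuffled within array sets. Figures were drawn with matplotlib 3.10.9. The limma comparisons were tested on simulated data with independent noise, without any correlation within array sets. The correlation, likeness and promoter steps were not tested in this way. A log2 difference understates the fold of a dim gene.

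The named genes were the members, the 5 genes most like each, every list gene that passed, and a fixed set of 14 pathway genes. Markers called between durations or sexes, and list genes called only in diet comparisons, are not all named; where a gene has several probe sets the brightest was taken. Sequences come from RefSeq. The members and lists were chosen with earlier results of these data known. Alternatives changed the offset, normalization, filter, moderation, array weights, covariates, block and arrays; leaving out arrays 05 to 10, the actin term and rank correlation were added after seeing the data.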

Additional observations from a re-analysis of the deposited data

Results flagged for a closer look

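In Hyp mice on low phosphate diet, Kl on array 10 (5958.2) stood far above the other 4 arrays (4460.2 to 4708.2). In Hyp mice on control diet, Kl on array 03 (3919.4) stood below the other 4 (4648.3 to 4938.5). Among the 12 groups examined (3 genes in 4 groups), about 1 in 20 would be marked this way by chance. Without array 10 the Kl genotype difference on low phosphate diet stayed past the threshold, and averaged over diets it passed without either array.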

How the results depend on the processing

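Of the differences called, Kl averaged over diets, Fgfr4 between durations and Fgfr4 between sexes passed with each array left out in turn. The Kl difference averaged over diets lost its call in males (-0.51), females (-0.42), 5-day arrays (-0.47) and 3-day arrays (-0.47), which hold fewer arrays. On low phosphate diet the Kl call was lost under quantile normalization (-0.47), no intensity filter (-0.54), omitting the sex and days terms (-0.54), fitting only the 2 groups (-0.54), males (-0.55), females (-0.52), 5 days (-0.52), 3 days (-0.57), without arrays 05 to 08 (-0.53) and without 05 to 10 (-0.64). It ran from -0.62 to -0.50 with 1 array left out. The Fgfr4 genotype call was lost with an offset of 1 (-0.84), no filter (-0.67), no terms (-0.67), a fixed block (-0.53), males (-0.67), females (-0.68), 5 days (-0.87), 3 days (-0.38), without arrays 05 to 08 (-0.63), without 09, 10, 19 and 20 (-0.53), and without 05 to 10 (-0.43), with -0.75 to -0.60 for 1 array left out. For days, Fgfr1 lost its call with no terms (-0.24), a random block (-0.28), males (-0.10), females (-0.45) and without 09, 10, 19 and 20 (-0.24), with -0.34 to -0.20 for 1 array left out. Fgfr4 lost it for days with no terms (-0.61) and in males (-0.37), and for sex with no terms (0.67), a random block (0.71) and 3 days (0.29). At 5 days the genotype difference gained a call with a filter at the median (-0.47 for Kl, -0.87 for Fgfr4) and robust trend moderation (-0.47 and -0.87), and for Kl with the actin term (-0.49). It ran from -0.53 to -0.42 for Kl and -1.004 to -0.743 for Fgfr4 with 1 array left out. At 3 days Kl gained a call with array weights (-0.47). For changes other than fewer arrays or probe sets the cause was not tested.

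Signs turned only for differences that were not called. With 3 days only, the diet difference in Hyp mice was -0.075 for Kl and 0.044 for Fgfr1, in normal mice -0.12 for Fgfr1 and 0.093 for Fgfr4, and averaged -0.039 for Fgfr1 and 0.046 for Fgfr4. In the same arrays the Fgfr1 genotype difference was 0.16 on low phosphate, -0.0045 on control and 0.079 averaged, its interaction 0.17 and its sex difference -0.14. Without arrays 05 to 08 and without 05 to 10, Fgfr1 gave 0.029 and 0.017 for diet in Hyp mice, 0.0096 and 0.053 for genotype on low phosphate, and 0.012 and 0.062 for genotype averaged, and the Fgfr4 interaction gave 0.060 and 0.092. Without 05 to 10 the Fgfr1 genotype difference at 5 days was 0.038. The Fgfr4 interaction was 0.022 with 5 days only and 0.028 with the actin term. In females the diet difference was -0.0068 for Kl in Hyp mice and -0.030 for Fgfr1 averaged. In males Kl gave 0.011 for days and 0.0022 for genotype between durations, and Fgfr4 -0.24 for diet at 3 days and 0.025 for diet between durations. Quantile normalization gave -0.0099 for averaged diet in Fgfr1, and in Kl 0.015 for days and 0.032 for genotype between durations. A random block gave 0.00034 for days in Kl, and array weights 0.035 for diet in normal mice in Fgfr4. Without 09, 10, 19 and 20 the values were 0.0021 for diet in normal mice in Fgfr4, -0.0028 for averaged diet in Fgfr1 and -0.021 for sex in Kl.

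With 1 array left out, further ranges that cross 0 were -0.0082 to 0.11 (Kl) and -0.14 to 0.035 (Fgfr1) for diet in Hyp mice, and -0.17 to 0.10 for the Fgfr4 interaction. For Fgfr1 they were -0.031 to 0.076 for averaged diet, -0.085 to 0.0072 for averaged genotype, -0.033 to 0.10 for sex and -0.00094 to 0.14 for diet at 5 days. For Kl they were -0.041 to 0.0074 for days, -0.0094 to 0.064 for diet at 3 days and -0.063 to 0.054 for genotype between durations, and for Fgfr4 -0.17 to 0.26 for diet at 3 days. The correlation of Fgfr1 and Fgfr4 lost its call by rank (0.40), with set means subtracted (0.32), without the 2 farthest arrays (0.28) and without arrays 05 to 08 (0.24), and that of Kl and Fgfr1 was -0.16 without arrays 05 to 08. Counts of calls over the whole array ranged from 0 to 187 for genotype averaged over diets and from 6 to 4342 for days. Title numbers are not shared between groups, so arrays were matched by array set: with the set as a fixed block the genotype difference averaged over diets was -0.47 for Kl (still called) and -0.53 for Fgfr4 (not called). The 5 arrays a group limit precision, and a probe as dim as Fgfr4 on arrays 05 to 08 lies near background.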
